A study of Mus musculus with 9 samples.

Results

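The stromal vascular fraction (SVF) of fat is the mixture of cells that is left after enzyme digestion, once the fat cells have floated off. It holds adipose progenitors and fibroblasts, endothelial cells with their mural cells, and leukocytes, so an array of it reads all of these cells together. The first day after priming was examined here across the genes measured by a 3' expression microarray. Priming is a surgical injury of the inguinal fat before its SVF is taken. The study primed by mincing the fat, by tying its feeding artery or by both, and presents its array comparison as priming by both, while the labels of these arrays name only the injury. The arrays labelled day 1 after injury (3 mice) were set against those labelled day 0 (3 mice), which the study used as the nonprimed state, and these were 6 of the 9 arrays of the series. Whether the fat of day 0 was injured and taken at once or left untouched is not given in the sources used here. All mice were wild-type male BALB/c aged 10 weeks, with 1 mouse per array, and the methods describe SVF preparation by collagenase and dispase. The other 3 arrays, of day 3, entered the estimate of the spread between mice and the choice of probe sets, but not the differences. In a mixture of cells, fewer cells of a type and less RNA in each cell cannot be told apart.

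Injured tissue is known to release signals that resident macrophages, mast cells and stromal cells answer with chemokines, and these draw neutrophils and then monocytes out of the blood. The incoming cells carry interleukin-1 and TNF, which act on stroma and vessels, and debris-sensing receptors switch on interferons and the genes that these induce. Endothelial cells, pericytes and adipose progenitors rebuild the vessels and the matrix later. The gene lists below follow these roles, from signals and receptors to the cells that carry them, and then to vessel, matrix and metabolism. The labelled tissue showed its defining transcripts. Pdgfra and Cd34 of stromal progenitors, Pecam1 of endothelium and Csf1r of macrophages were called present on all 6 arrays. Of other tissues, the epithelial keratins Krt5 and Krt14 and the muscle myosin Myh2 were called present on none, but the epithelial cadherin Cdh1, at signals of 76.5 to 98.4, and the muscle actin Acta1, at 191 to 693, were called present on all 6. Of 8 tested skeletal muscle genes 1 rose, the troponin Tnni2 (change 1.35 ± 0.42), and none fell. Its call was lost when replicate 1 or 3 of day 0 or replicate 1 or 2 of day 1 was left out (limma's adjusted p from 0.0698 to 0.108).

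A gene was read by its brightest probe set, as the signal that the authors scaled to the same trimmed mean on every array. Changes below are differences of the mean log2 signal, day 1 minus day 0, each with its standard error and n = 3 mice per day. The adjusted p is limma's with Benjamini-Hochberg adjustment over all 11796 genes tested, and a gene is said to have risen or fallen when it was under 0.05. Day 1 was higher for 1268 genes (10.7% of those tested) and lower for 2110 (17.9%). Counts of risen and fallen members of the lists below are to be read against these shares. A change of 2-fold or more was reached by 430 risen genes (3.65%) and 396 fallen genes (3.36%). The 3 arrays of day 1 lay above all 3 of day 0 for 1632 genes (13.8%) and below them for 3082 (26.1%). The number of rises was 806 without day 1 replicate 1. Falls were down to 1304 or 1000 when replicate 1 or 3 of day 0 was left out, and to 1130 or 1320 when replicate 1 or 2 of day 1 was. The 2-fold falls numbered 242 without day 0 replicate 3, 236 without day 1 replicate 1 and 670 without day 1 replicate 3. Large changes went upwards. Among called genes 157 rose 4-fold or more and 72 rose 8-fold or more, whereas 7 fell 4-fold or more and none fell 8-fold. The plot of change against level shows this lopsided shape. The median change over all genes was -0.13, and it was -0.06 with quantile normalization and -0.01 with median centring. Falls made up 62.5% of the calls as scaled by the authors, 53.6% with quantile normalization and 42.8% with median centring, so the balance of small rises and falls depended on the scaling. Detection differed between days as well. For 77 genes the probe set was called present on all 3 arrays of day 1 and on none of day 0, and 48 of them rose. For 109 genes it was the reverse, and 42 of those fell.

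**Figure D1:**
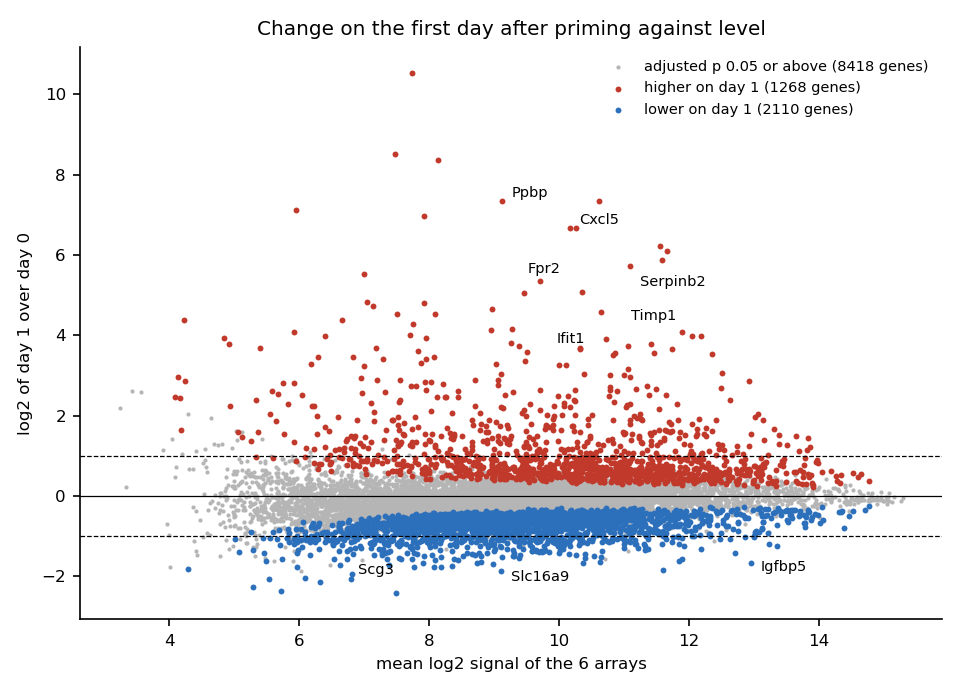
Change from day 0 to day 1 (y axis, log2 of day 1 over day 0) against the mean log2 signal of the 6 arrays (x axis) for the 11796 genes tested. Each point is 1 gene, coloured where limma's adjusted p was under 0.05, and dashed lines mark a 2-fold change. Rises reach far above 8-fold (72 genes), whereas no called fall reaches that size.

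The 3 mice of day 1 did not respond to the same extent. Over the 430 genes that rose at least 2-fold, the median change from the day 0 mean was 1.97 in replicate 1 and 1.56 in each of replicates 2 and 3. Over the 396 genes that fell at least 2-fold it was -1.45, -1.19 and -0.87 in replicates 1, 2 and 3. These genes were chosen on the same arrays, so the values describe the mice and test nothing. Pearson correlations between arrays over all genes were 0.978 to 0.982 within day 0, 0.971 to 0.979 within day 1 and 0.902 to 0.948 between the days. Of 45101 probe sets, 25677 to 26299 were called present on the arrays of day 0 and 24106 to 25557 on those of day 1. For Gapdh, the signal of the 3' probe set over that of the 5' probe set, a sign of RNA quality, was 0.54 to 0.59 on day 0 and 0.67 to 0.69 on day 1. The ratio for actin was 1.21 to 1.26 and 1.20 to 1.32. The part of the Gapdh difference in the results below was not tested.

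Among the 30 largest rises were genes of several kinds of cell. Serpinb2, an inhibitor of plasminogen activators made by activated macrophages, had signals of 248, 422 and 263 on day 0 and 21472, 16150.2 and 11547 on day 1. Its lowest array of day 1 was far above its highest of day 0, and its change was 5.72 ± 0.25 (adjusted p = 8.06e-08). Fpr2, a receptor for formylated peptides on phagocytes, had 129, 139.9 and 126 on day 0 and 7208, 4992 and 4278 on day 1, a change of 5.35 ± 0.19. The niacin receptor Hcar2, carried by myeloid and fat cells, had 193, 256 and 237 on day 0 and 11726, 4860.1 and 7719 on day 1, a change of 5.07 ± 0.26. Both had groups that did not overlap, which the rule for choosing the 30 largest rises required. Prg4, the lubricating glycoprotein lubricin of joint and stromal cells, rose by 4.57 ± 0.19, from 278, 352 and 365 to 8107, 8541 and 6931. The cell adhesion molecule Chl1 rose by 4.13 ± 0.27, from 126, 103 and 129 to 2592, 2104 and 1656, and Klra2, a lectin-like receptor of the Ly49 family, rose by 4.74 ± 0.26 (adjusted p from 1.22e-08 to 1.61e-06). Some large rises began from probe sets that were called present on no array of day 0, so their size has a bound. It is the mean of day 1 against the higher of each day 0 array's detection floor and the probe set's own signal there. Chil1, a chitinase-like protein, went from 26.9, 11.2 and 51.6 to 1276, 435 and 630.1, at least 28.2-fold. Il23a, the specific subunit of interleukin-23, went from 46.5, 33.7 and 35.7 to 1761, 607 and 629, at least 22.9-fold. The leukotriene B4 receptor Ltb4r1 of granulocytes went from 23.4, 9.29 and 50.3 to 718, 358 and 377, at least 20.7-fold (adjusted p from 8e-06 to 8.88e-05). In all 3 genes, replicate 1 of day 1 held the highest signal.

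Receptors by which phagocytes recognise antibody-coated and microbial or damaged material rose as a group. Of 12 tested Fc receptors and C-type lectins, 11 rose and none fell, against 10.7% and 17.9% of all genes, with a median change of 2.54 against -0.13 over all genes. Fcgr4, an activating Fc receptor, had signals of 137, 154 and 151 on day 0 and 3041, 2313 and 2567 on day 1. The high-affinity receptor Fcgr1 had 395, 467 and 449.5 on day 0 and 6889, 5769 and 7071 on day 1. Both stood more than 8-fold higher in every mouse of day 1, with changes of 4.16 ± 0.16 and 3.91 ± 0.15. Clec4e, the receptor Mincle that binds mycobacterial lipid and a protein of dead cells, had 888, 1609.7 and 1149 on day 0 and 23920.4, 18760.3 and 14182 on day 1. Its partner Clec4d had 645, 1289.5 and 947 on day 0 and 21495, 15147 and 11761 on day 1, and their changes were 3.97 ± 0.21 and 4.08 ± 0.24. The beta-glucan receptor Clec7a rose by 2.67 ± 0.19 (adjusted p from 2.52e-08 to 2.91e-06).

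Chemokines that draw neutrophils and monocytes were among the strongest rises. Of 8 tested members of the neutrophil-attracting CXC list 6 rose and none fell, with a median of 2.61. Cxcl5 had signals of 112, 95.5 and 137 on day 0 and 14796, 10112 and 10627 on day 1, with no overlap and a change of 6.68 ± 0.20. Ppbp, a chemokine of platelets and myeloid cells, had 61, 32.8 and 41.4 on day 0 and 9618, 6717 and 5559 on day 1, and 1 of its 3 probe set calls on day 0 was present. Cxcl3 had 870.3, 1212 and 1179 on day 0 and 21103, 15547 and 14457 on day 1, a change of 3.97 ± 0.21. Their receptor Cxcr2 was called present on no array of day 0 (13.8, 16.3 and 14.4) and on all of day 1 (288, 208 and 259), at least 16.9-fold higher. Other ligands of this group, whose signals on day 0 were already far above those of Cxcl3, changed little in signal. Whether an upper limit of the array's signal held their changes down was not tested. Cxcl1 had 34858, 33877 and 32772 on day 0 and 36193, 36549 and 34030.0 on day 1, with overlapping groups and a change of 0.07 ± 0.08 (adjusted p = 0.484), and Cxcl2 rose by 0.37 ± 0.08 from 24039, 25038 and 25177 to 34282, 32348 and 29747. Among CC chemokines and their receptors, 11 of 21 rose and 3 fell, the latter being 1 when replicate 2 or 3 of day 0 or replicate 2 of day 1 was left out. Ccl12, a ligand of the monocyte receptor Ccr2, had 969.9, 1122 and 818 on day 0 and 13719, 13936 and 9229 on day 1, and Ccr2 itself had 665, 940.5 and 725 on day 0 and 5269.8, 6026 and 3251 on day 1. Ligand and receptor rose together, by 3.65 ± 0.18 and 2.61 ± 0.22. Ccl3 and Ccl4, inflammatory chemokines of macrophages, rose by 1.90 ± 0.15 and 1.89 ± 0.19, and the decoy-like receptor Ccrl2 by 2.05 ± 0.11 (adjusted p from 1.99e-07 to 3.65e-05). Ccl22, a dendritic cell product that attracts regulatory T cells, went the other way, with 656, 454 and 521 on day 0 and 105, 185 and 199 on day 1 and a change of -1.78 ± 0.24.

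The promoters of 2 of these chemokines are shown because they hold the sequence that the transcription factor NF-kB binds. Each line gives bases upstream of the RefSeq start site of the gene in GRCm38.p6, 5' to 3' on the gene's strand, with the match in capitals. Cxcl3 is at chr5:90785989-90786078 on the plus strand and Cxcl2 at chr5:90903763-90903852 on the plus strand.
Cxcl3: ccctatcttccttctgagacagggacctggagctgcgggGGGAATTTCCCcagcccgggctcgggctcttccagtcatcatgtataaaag
Cxcl2: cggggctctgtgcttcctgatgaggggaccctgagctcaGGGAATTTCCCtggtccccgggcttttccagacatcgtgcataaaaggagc
Both hold the same 11 capital bases, although Cxcl3 changed by 3.97 and Cxcl2, from a far higher signal on day 0, by 0.37. On either strand of a window of 250 bases before to 50 after the start site, the NF-kB consensus was found in 3 of 7 promoters (42.9%) of the CXC list, in 11 of 26 (42.3%) of the list of NF-kB subunits and feedback inhibitors, and in 633 of 12241 (5.17%) of all genes tested. A match of letters shows neither binding nor a cause of a change.

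Cytokines of the interleukin-1 family rose, with 5 of 6 tested ligands higher. Of 21 tested members 14 rose and 1 fell (2 without day 0 replicate 2 and 3 without day 1 replicate 3), with a median of 0.90. Il1f9, an epithelial and myeloid alarm cytokine, was called present on no array of day 0 (37.7, 4.88 and 56.8) and on all of day 1 (5144, 1629.5 and 2386), at least 103.5-fold higher. Il1a, released by dying cells, had 221, 476 and 435 on day 0 and 10312, 3202 and 2932 on day 1, and Il1b, made by myeloid cells, had 2235, 3794 and 2845 on day 0 and 24685, 21936 and 17446 on day 1. Replicate 1 of day 1 was highest for both, by a wide margin for Il1a only. The receptor antagonist Il1rn, which blocks both, had 523, 559 and 710.3 on day 0 and 11286, 5182 and 8114 on day 1. The changes were 3.68 ± 0.42 for Il1a, 2.87 ± 0.18 for Il1b and 3.72 ± 0.23 for Il1rn. The decoy receptor Il1r2 and the inhibitory receptor Sigirr did not pass the test, with changes of 0.46 ± 0.18 and -0.67 ± 0.23 (adjusted p = 0.0767 and 0.0501), although both passed with the replicate block (0.0429 and 0.0197) and when day 0 replicate 2 or day 1 replicate 3 was left out (0.00447 to 0.0473). Nlrp3, the sensor of the inflammasome that cuts interleukin-1 beta, rose by 2.22 ± 0.25, whereas the interleukin-18 receptor Il18r1, found on lymphocytes, fell by 1.49 ± 0.24 (adjusted p from 1.01e-06 to 0.00108). In the interleukin-6 family, 4 of 5 ligands rose. Il11 had 54, 64 and 80.2 on day 0 and 1386, 494 and 722 on day 1, and was called present on 1 array of day 0. Osm, a macrophage and neutrophil product, had 409, 501 and 556 on day 0 and 3197, 1993 and 2247 on day 1, and Lif, a stem cell and wound cytokine, had 369, 404 and 460.1 on day 0 and 1866, 1038 and 1481 on day 1. Their changes were 3.60 ± 0.31, 2.32 ± 0.19 and 1.80 ± 0.26 (adjusted p from 8.44e-06 to 0.000664). Il6 itself had 16590.4, 25929 and 21689 on day 0 and 32820.2, 31337 and 24823 on day 1, and its groups overlapped. Its change of 0.48 ± 0.16 (adjusted p = 0.0445) lost its call without each array in turn except day 0 replicate 2 and day 1 replicate 3 (adjusted p from 0.0501 to 0.163). No receptor of the family rose, and Il6ra, its ligand-binding chain, fell by 0.70 ± 0.16, from 1755, 1654 and 1942 to 878, 1073 and 1403.

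Growth factors of myeloid cells and their receptors moved in both directions. Csf2, which drives granulocytes and macrophages, had 307, 383 and 340.0 on day 0 and 2349, 1352 and 1446 on day 1, a change of 2.28 ± 0.22. Csf3r, the receptor of the granulocyte factor, had 219, 293 and 266 on day 0 and 1969, 1166 and 1595 on day 1, a change of 2.58 ± 0.19. The granulocyte factor Csf3 had a wide day 0, with 611, 1640.5 and 1549.8 on day 0 and 3702, 3064 and 2154 on day 1. Its change of 1.32 ± 0.35 lost its call without day 1 replicate 1 or 2 (adjusted p = 0.0673 and 0.0529). On the macrophage axis, the ligand Il34 fell by 1.02 ± 0.20, from 158, 241 and 224 to 102, 111 and 91.1, and the shared receptor Csf1r fell by 0.47 ± 0.11 (adjusted p from 4e-06 to 0.00885). Csf1, the other ligand of Csf1r, went the other way and rose by 0.52. Risen ligands in the list of colony-stimulating factors numbered 3, and 1 or 2 when any single array was left out. In the TNF superfamily, Tnf, a main inflammatory cytokine, had 2574, 2807 and 2951 on day 0 and 19548, 11308 and 13832 on day 1, and its change was 2.39 ± 0.16. Lta and Ltb, the lymphotoxins made by lymphocytes, went down. Lta had 176, 185 and 208 on day 0 and 58.4, 76.1 and 75.1 on day 1 and Ltb had 8296, 9157 and 8788 on day 0 and 4773, 4799.7 and 7042 on day 1, changes of -1.45 ± 0.20 and -0.68 ± 0.17 (adjusted p from 1.92e-06 to 0.0123). Tnfrsf11b, osteoprotegerin, the decoy receptor of the osteoclast factor, rose by 2.28 ± 0.35.

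Interferon-stimulated genes rose almost as a block. Of 35 tested members 30 rose and none fell, with a median of 1.89, and 25 rose 2-fold or more. Among RNA-binding and other antiviral members 25 of 26 rose, with a median of 2.19. Among the interferon-induced GTPases that guard vacuoles 5 of 9 rose, with a median of 0.71, and 3 of 9 without day 0 replicate 1. Ifit1, which binds viral RNA, had 420.5, 577 and 661 on day 0 and 6624, 5905 and 6669.7 on day 1, and the related Ifit3 had 495, 638 and 491 on day 0 and 5662, 5313 and 7736 on day 1. Rsad2, viperin, which makes a chain-terminating nucleotide, had 1377, 1483 and 1786 on day 0 and 18879, 15165 and 19679 on day 1. The myxovirus resistance gene Mx1 had 276, 219 and 185 on day 0 and 2361, 1849 and 2716 on day 1. None of these 4 genes overlapped between days, and replicate 1 of day 1 did not stand out in them. Their changes lay between 3.35 ± 0.36 for Mx1 and 3.56 ± 0.27 for Ifit1 (adjusted p from 8.17e-07 to 7.1e-05). Among the genes that make and carry the signal, the interferon Ifnb1 had 49, 56.6 and 85.9 on day 0 and 374, 264 and 301 on day 1, a change of 2.32 ± 0.31. Irf7, the factor that amplifies type I interferon, had 1322, 1477 and 1236 on day 0 and 8763, 6440.1 and 8043 on day 1, and Stat2, which carries the type I signal to the nucleus, had 506, 422 and 396 on day 0 and 986, 717 and 1222 on day 1. These rose by 2.52 ± 0.20 and 1.12 ± 0.19 (adjusted p from 7.95e-06 to 0.00187). The type II interferon of lymphocytes did not pass the test as fitted. Ifng had 273, 430.4 and 389.5 on day 0 and 104, 141 and 388 on day 1, with overlapping groups and means of 364 ± 81.7 and 211 ± 154 (SD, n = 3 each; limma's adjusted p = 0.0737). It passed without day 1 replicate 3 (change -1.56, adjusted p = 0.00072) and with the replicate block (adjusted p = 0.0286). Of the chemokines that interferons induce, Cxcl11 and Cxcl10 rose by 2.89 ± 0.34 and 1.62 ± 0.26 (adjusted p from 0.000143 to 0.00126). Cxcl9, the one most tied to interferon gamma, had 2287, 3592 and 2689 on day 0 and 1592, 1871 and 1263 on day 1. Its change was -0.85 ± 0.25 (adjusted p = 0.0284), and the call was lost without day 0 replicate 2 or 3 or day 1 replicate 1 or 3 (adjusted p from 0.0589 to 0.0864) and with median centring.

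Promoters of 4 of these genes are shown because they hold the interferon-stimulated response element, read here as GAAANNGAAA on either strand. The windows are upstream of the RefSeq start sites in GRCm38.p6, 5' to 3' on the gene's strand, at chr19:34640764-34640853 (plus) for Ifit1, chr19:34583367-34583456 (plus) for Ifit3, chr12:26456523-26456612 (minus) for Rsad2 and chr3:142559965-142560043 (plus) for Gbp3. Capitals mark the matches, which read TTTCNNTTTC where the element lies on the other strand.
Ifit1: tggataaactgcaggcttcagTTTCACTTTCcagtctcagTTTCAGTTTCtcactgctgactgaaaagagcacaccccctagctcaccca
Ifit3: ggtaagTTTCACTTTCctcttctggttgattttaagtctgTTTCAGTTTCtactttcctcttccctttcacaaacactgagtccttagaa
Rsad2: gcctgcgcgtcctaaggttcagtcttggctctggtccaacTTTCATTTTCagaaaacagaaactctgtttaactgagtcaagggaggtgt
Gbp3: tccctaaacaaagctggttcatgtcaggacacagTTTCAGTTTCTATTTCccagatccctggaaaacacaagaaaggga
Ifit1 and Ifit3 carry a pair of separate matches, Rsad2 a single one, and Gbp3, a guanylate-binding protein that rose by 1.52 ± 0.20, an overlapping pair. The element was found in 16 of 29 promoters (55.2%) of the interferon-stimulated list, which belong to 15 of its 24 genes with a promoter in the table. It was found in 380 of 12241 promoters (3.1%) of all genes tested, in none of 26 of the NF-kB list and in none of 7 of the CXC list. Among list members that rose, 14 of 27 promoters (51.9%) held it. The share describes letters in the window and tests nothing.

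Markers of incoming myeloid cells rose on all 3 arrays of day 1. The mean log2 signal of the tested neutrophil markers lay 4.38 to 4.69 above the day 0 mean on day 1, and that of the monocyte markers lay 2.79 to 3.20 above it. Of 8 neutrophil markers on the array, 3 were called present on all arrays of day 0 and 6 on all of day 1. The 6 tested thus passed the detection filter in part only through the day on which they were high. Their median change was 4.80. The marker median was 3.33 without the filter and 6.11 among genes present on all 6 arrays. Of 16 tested neutrophil genes 13 rose, with a median of 3.27 (2.39 without the detection filter and 2.58 among genes present on all 6 arrays). S100a8 and S100a9, the calprotectin chains that fill the neutrophil cytosol, rose by 6.22 ± 0.32 and 6.11 ± 0.29, S100a8 from 287, 416 and 354 to 31711, 32271 and 17203. Mmp8, the neutrophil collagenase, went from 4.12, 35.3 and 46.7 to 1072, 1037 and 595, a change of 5.52 ± 0.70. Its signal on day 0 replicate 1 lay under the lowest signal called present on that array, 9.67, so the size of its change is uncertain. Granule genes are mostly transcribed in the bone marrow. The early granule proteases Mpo, Elane, Prtn3 and Ctsg did not pass the detection filter, and neither did Ltf or Camp of the later granules. Lcn2, listed like Ltf and Camp as a gene of the specific granules, rose by 5.05 ± 0.32 (adjusted p from 1.35e-07 to 0.000237). All 4 tested genes of these granules rose (3 when some single arrays were left out), with a median of 1.68. Ngp among them rose by 2.52. Of 16 monocyte genes 12 rose and 2 fell, with a median of 2.18. Ms4a6c and Ms4a4c, membrane proteins of blood monocytes, had 1004, 1171 and 891 on day 0 and 7637, 8082 and 5002 on day 1 for the former and 2629.6, 2460.3 and 1846 on day 0 and 16274, 16331 and 11945 on day 1 for the latter. Chil3, a chitinase-like protein of monocytes and neutrophils, was called present on no array of day 0 and was at least 251.7-fold higher on day 1. Genes of resident macrophages had no common direction, with 19% higher and 9.52% lower, against 10.7% and 17.9% of all genes. Of 21 tested members 4 rose (2 without day 0 replicate 1) and 2 fell (1 without any of the 3 arrays of day 0 or day 1 replicate 2 or 3), with a median of -0.00 (0.12 with median centring and -0.12 with quantile normalization). Adgre1, the F4/80 antigen, rose by 0.71 ± 0.15, from 1523, 1661 and 1596 to 3242, 2503 and 2187, and the lectin Mgl2 fell by 0.90 ± 0.15, from 2561, 2796 and 2737 to 1814, 1249 and 1326. In the list of mast cells, basophils and eosinophils 4 of 13 rose and 1 fell, with a median of 0.01 (0.19 with quantile normalization). The fallen gene was Gata2, at -0.49. Of 7 tested mast cell markers 1 rose and none fell, and the tryptase Tpsb2 among them had a change of -0.34 that was not called. Hdc, the enzyme that makes histamine, rose by 1.91 ± 0.20, from 808, 651 and 714 to 3655, 2101 and 2573, the tryptase Tpsab1 by 1.61 ± 0.28 and the IgE receptor chain Fcer1a by 1.77 ± 0.33, whereas the connective tissue mast cell protease Mcpt4 had a change of -0.25 ± 0.15 (adjusted p = 0.235). Among eosinophil markers, Siglecf was present on all 6 arrays and rose by 1.16 ± 0.37, from 41.8, 62.2 and 49.5 to 167, 92.5 and 92.5, a call that was lost when replicate 1 or 3 of day 0 or replicate 1 or 2 of day 1 was left out (adjusted p from 0.0528 to 0.145). The granule genes Prg2 and Epx were called present on no array.

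Many T and B cell genes fell, and they fell very unevenly among the mice. Of 20 tested T cell genes 13 fell and none rose, with a median of -1.16. Cd8a, the coreceptor of cytotoxic T cells, had 1156, 1094 and 1169.9 on day 0 and 207, 391 and 744 on day 1. Cd6, a T cell surface receptor, had 935, 869.8 and 920.0 on day 0 and 138, 318 and 514 on day 1, and Gata3, a factor of helper and innate lymphoid cells, had 336, 431 and 456 on day 0 and 61.8, 108 and 243 on day 1. In each of the 3, replicate 1 of day 1 was lowest and replicate 3 closest to day 0. Their changes were -1.54 ± 0.34, -1.69 ± 0.36 and -1.78 ± 0.38 (adjusted p from 0.00591 to 0.0077). The mean of the tested T cell markers on day 1 was -2.19, -1.04 and -0.59 relative to day 0 in replicates 1, 2 and 3, against -0.05 to 0.07 on the arrays of day 0. The B cell markers were at -1.58, -1.17 and -0.41. The plot of marker scores shows the same order for markers of lymph node vessels and stroma, at -1.17, -0.38 and 0.03. A lymph node lies in the inguinal fat pad, and its part in these values was not tested. Genes of NK and cytotoxic cells moved in both directions, with 3 of 14 higher and 1 lower and a median of -0.49. The fall was that of Nkg7, with a change of -0.82. Fallen genes of this list numbered 5 without day 1 replicate 3 and with the replicate block, 3 without day 3 replicate 2, and none without any other single array. Klrk1, an activating receptor, rose by 1.74 ± 0.39, and granzymes B and A, Gzmb and Gzma, by 1.24 ± 0.24 and 0.78 ± 0.22 (adjusted p from 0.00388 to 0.0212). The call of Gzma was lost when replicate 1 or 3 of day 0 or replicate 1 of day 1 was left out (adjusted p from 0.0697 to 0.078). The counts for T and B cells also depended on single arrays. T cell genes that fell numbered 7, 8 and 6 without day 0 replicates 1, 2 and 3. The 7 fallen of 15 B cell genes became 2 or 3 without day 0 replicate 1 or 3 or day 1 replicate 1 or 2, 12 without day 1 replicate 3, and 3 with median centring. Fcer2a, the low-affinity IgE receptor of B cells, kept its call without each array in turn, with 2368, 1679 and 1705 on day 0 and 498, 566 and 1183 on day 1 and a change of -1.45 ± 0.33. Genes of antigen presentation on MHC class II fell as well. H2-DMa, which loads peptides, had 2724, 2171 and 2295 on day 0 and 964, 910.1 and 1702 on day 1, and the invariant chain Cd74 had 20949, 16165 and 18612 on day 0 and 9465, 9736 and 13495 on day 1, changes of -1.06 ± 0.22 and -0.78 ± 0.17 (adjusted p from 0.00599 to 0.00894). Of 17 tested genes of dendritic cells and MHC class II 9 fell, 4 and 5 without day 0 replicates 1 and 2 and 5 with median centring.

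**Figure D2:**
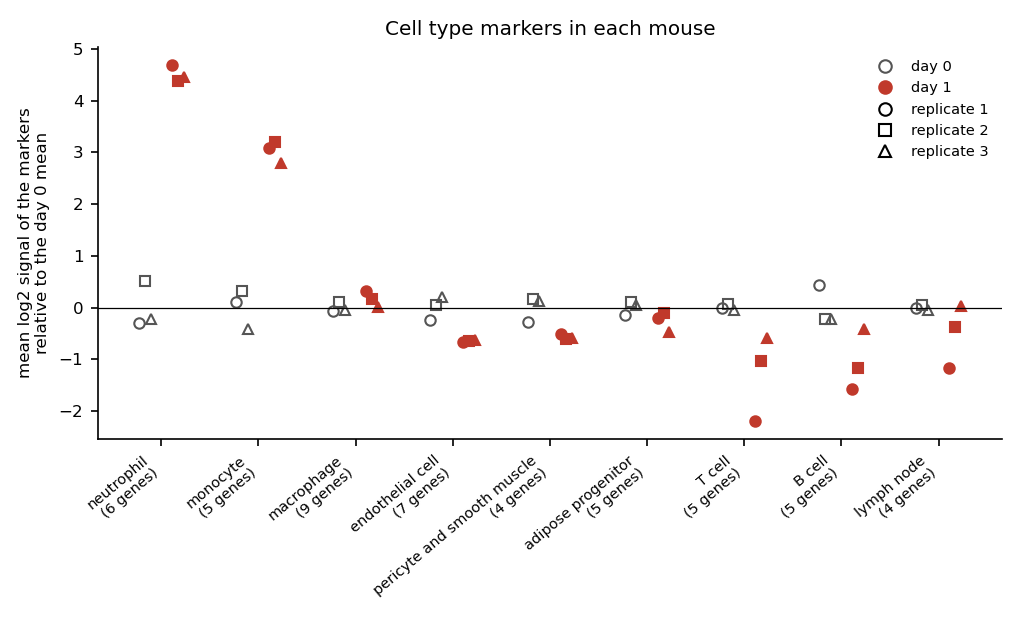
Mean log2 signal of the tested markers of 9 cell types, relative to their day 0 mean (y axis), with 1 point per mouse, 3 on each day, and symbols for replicates 1 to 3. Neutrophil and monocyte markers lie at 4.38 to 4.69 and 2.79 to 3.20 on day 1, whereas T cell markers spread from -2.19 to -0.59. A marker was tested when called present on all 3 arrays of some day.

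Among genes of vessel signalling, several ligands rose and several receptors fell. Which cells of the mixture made the ligands was not tested. Of 10 tested ligands of the VEGF and angiopoietin systems 5 rose and 2 fell (1 without day 0 replicate 3), and of 8 receptors none rose and 5 fell, 3 without day 0 replicate 3. Pgf, placental growth factor, had 348, 289 and 490.4 on day 0 and 1227, 776 and 1137 on day 1, and Angpt2, which destabilises vessels, had 324, 409 and 403 on day 0 and 944, 1050.2 and 817 on day 1. Apln, a tip cell peptide, had 333, 332 and 374 on day 0 and 1247, 513 and 999.8 on day 1. All 3 were higher in every mouse of day 1, by 1.49 ± 0.22, 1.31 ± 0.16 and 1.32 ± 0.29, with the least Apln in replicate 2. Vegfa, the main angiogenic ligand, had 796, 778 and 811 on day 0 and 2048, 1060.1 and 1626 on day 1, a change of 0.94 ± 0.22, while Vegfc, the lymphatic ligand, fell by 0.87 ± 0.19 (adjusted p from 0.0002 to 0.0106). Kdr, the main VEGF receptor, had 1245, 1407 and 1437 on day 0 and 849, 846 and 831 on day 1. Tek and Tie1, the receptor of the angiopoietins and its partner, had 2436, 3256 and 3531 on day 0 and 1902, 1897 and 1544 on day 1 for Tek and 367, 375 and 508 on day 0 and 262, 193 and 245 on day 1 for Tie1. The receptors fell, with changes of -0.69 ± 0.13, -0.78 ± 0.15 and -0.83 ± 0.19 (adjusted p from 0.00327 to 0.00796). Endothelial genes at large fell in part. Of 26 tested 13 fell and 3 rose, with a median of -0.53, and 8 fell without day 0 replicate 3. Vwf, von Willebrand factor, had 907, 1233 and 1696 on day 0 and 404, 455 and 587 on day 1, and its levels on day 0 were themselves spread. Cldn5, the tight junction protein, had 4838, 5359.9 and 5561 on day 0 and 2542, 2856 and 2323 on day 1, and Sox17, an arterial transcription factor, had 1465, 1396 and 1583 on day 0 and 785, 679 and 625 on day 1. Their changes were -1.38 ± 0.26, -1.03 ± 0.14 and -1.09 ± 0.14, and the vascular phosphatase Ptprb fell by 1.35 ± 0.20 (adjusted p from 0.000304 to 0.00313). The other 10 endothelial genes did not pass the test, and among them Pecam1 had 2871, 3874 and 3592 on day 0 and 2202, 3062 and 2878 on day 1, with overlapping groups (change -0.35 ± 0.15, adjusted p = 0.108, or -0.43 with limma's adjusted p = 0.0448 after quantile normalization). Of 15 tested genes of pericytes and smooth muscle 10 fell and 1 rose, with a median of -0.53, and 6 fell without day 0 replicate 3. The myosin light chain Myl9 had 4214, 5971 and 5311 on day 0 and 2044, 2515 and 2374 on day 1, the myosin heavy chain Myh11 1347, 1612 and 1721 on day 0 and 726, 557 and 939 on day 1, and Notch3, the pericyte Notch receptor, 1438, 1359.7 and 1763 on day 0 and 876, 892 and 782 on day 1. They fell, with changes of -1.15 ± 0.14, -1.10 ± 0.20 and -0.83 ± 0.13 (adjusted p from 0.000188 to 0.00261).

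**Figure D3:**
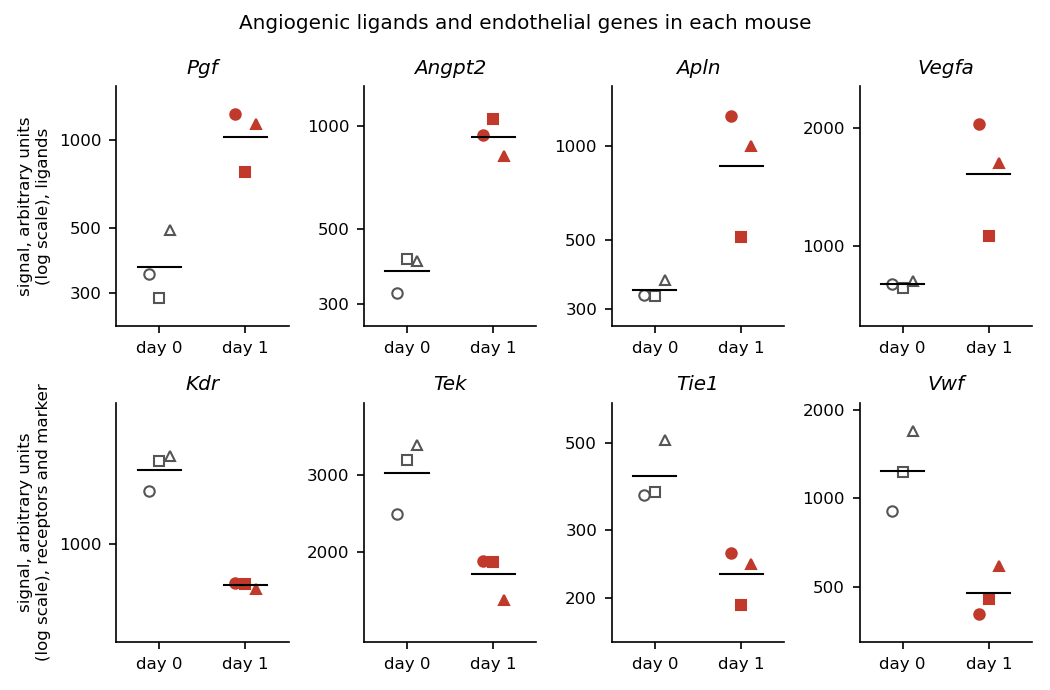
Signal (y axis, log scale, arbitrary units) of 4 angiogenic ligands and of 4 endothelial receptors or markers on the 3 arrays of day 0 and the 3 of day 1, with 1 point per mouse and a line at the geometric mean. Pgf, Angpt2, Apln and Vegfa are higher in every mouse of day 1, and Kdr, Tek, Tie1 and Vwf lower.

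Matrix genes moved in both directions. Of 20 tested collagen chains 12 fell and none rose, with a median of -0.41, and 7 fell with median centring. The fallen chains included Col4a5 of basement membrane, with 1764, 1525 and 1723 on day 0 and 762, 526 and 621 on day 1, and Col6a1 of pericellular microfibrils, with 9293, 8496 and 9862 on day 0 and 4433, 4156 and 4526 on day 1. Their changes were -1.41 ± 0.15 and -1.07 ± 0.11 (adjusted p from 3.65e-05 to 6.42e-05). Glycoproteins went both ways, with 5 of 22 higher and 9 lower. Tnc, tenascin C, had 371, 373 and 376 on day 0 and 1410.2, 818 and 863 on day 1, and Thbs1, thrombospondin 1, had 2879.9, 2433 and 2689 on day 0 and 8898, 6729.8 and 6863 on day 1. Vcan, versican, a large proteoglycan also made by monocytes, had 1869.9, 1944 and 1909 on day 0 and 8429, 7795 and 5278 on day 1. They rose by 1.42 ± 0.20, 1.48 ± 0.14 and 1.88 ± 0.16, and Cthrc1, a product of activated fibroblasts, by 2.45 ± 0.17 (adjusted p from 1.91e-06 to 0.000572). Lama2, a laminin chain, had 3994, 3844 and 4798 on day 0 and 1537, 1634 and 1854 on day 1, a change of -1.33 ± 0.12, and Fbln5 of elastic fibres fell by 1.00 ± 0.14 (adjusted p from 2.29e-05 to 0.000609). Periostin, Postn, a protein of healing and fibrous tissue, fell by 0.68 ± 0.10, and fibronectin, Fn1, a main protein of early wound matrix that was named after its value was seen, by -0.44 ± 0.10 (adjusted p from 0.000869 to 0.00897). Among 15 tested proteases 6 rose and 4 fell (2 fell with median centring and without day 0 replicate 2 or 3 or day 1 replicate 1 or 2). The collagenase Mmp13 had 429.6, 631 and 567 on day 0 and 2931, 2366 and 3015 on day 1 and the sheddase Adam8 had 560.0, 484 and 544 on day 0 and 2428, 1769 and 2259 on day 1, rising by 2.36 ± 0.26 and 2.01 ± 0.14, and stromelysin 3, Mmp11, fell by 0.87 ± 0.27 (adjusted p = 0.0307, and 0.0519 to 0.0908 when any of these 6 arrays but day 0 replicate 1 was left out). The inhibitors of these enzymes divided. Timp1, a secreted inhibitor induced by cytokines, had 556, 844 and 864 on day 0 and 12860.4, 10273 and 7719.5 on day 1, an increase of 3.77 ± 0.21. Timp3, which stays bound to matrix, had 6562, 7611 and 8060.0 on day 0 and 2556, 3385 and 2903 on day 1, Timp4 had 2070.1, 3054 and 3587 on day 0 and 616, 1465 and 806 on day 1, and the membrane-anchored inhibitor Reck had 1733, 1777 and 2211 on day 0 and 952, 886 and 1114 on day 1. These 3 fell, with changes of -1.33 ± 0.16, -1.65 ± 0.29 and -0.95 ± 0.14 (adjusted p from 4.01e-07 to 0.00194). All 5 inhibitors tested changed, 1 upwards and 4 downwards, and the calls of the 4 named here held without each array in turn.

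The activin genes rose while related ligands of the BMP group fell. Inhba, the chain of activin A, was called present on no array of day 0 (41.4, 111 and 97.5) and on all of day 1 (1340.2, 606 and 642), at least 10.5-fold higher. Inhbb, the chain of activin B, had 513, 477 and 493 on day 0 and 1685, 1340.5 and 1718 on day 1, a change of 1.67 ± 0.12. Gdf10, also called Bmp3b, had 7122, 5498 and 6755 on day 0 and 1685, 2178 and 2539 on day 1, one of the 30 largest falls. Bmp4, which guides adipose progenitors, had 502, 501 and 558 on day 0 and 263, 234 and 297 on day 1, and Bmp6, a regulator of iron and bone, had 334, 315 and 402 on day 0 and 167, 159 and 166 on day 1. They fell, with changes of -1.61 ± 0.15, -0.98 ± 0.14 and -1.09 ± 0.15, and Tgfb3 fell by 1.08 ± 0.19 (adjusted p from 4.19e-06 to 0.00248). In all, 2 of 10 tested ligands rose and 6 fell. Genes of Wnt and Notch signalling moved one way. Of 25 tested members 15 fell and none rose, with a median of -0.68 (-0.57 with quantile normalization and -0.56 with median centring). Wnt5a had 298, 279.8 and 388 on day 0 and 154, 54.5 and 155 on day 1 and was called present on 2 of 3 arrays of day 1. Sfrp2, a secreted Wnt modulator of stroma, had 5483, 5090.4 and 6259 on day 0 and 2382, 2062 and 2929 on day 1, and they changed by -1.55 ± 0.35 and -1.20 ± 0.14 (adjusted p from 0.000133 to 0.00829). Axin2, a target that reports Wnt activity, had 299, 266 and 356 on day 0 and 84.6, 119 and 225 on day 1 and a change of -1.21 ± 0.31. Its call was lost without day 0 replicate 3 or day 1 replicate 1 or 2 (adjusted p from 0.0502 to 0.0639).

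The plot of changes in matrix and growth factor genes sets these rises and falls side by side. Adipose progenitor genes were mostly lower where they moved. Of 27 tested 10 fell and 1 rose, with a median of -0.26. Ebf2 and Zfp423, transcription factors that commit progenitors to fat, had 1801, 2167 and 2573 on day 0 and 1023, 809.7 and 1186 on day 1 for Ebf2 and 407, 381 and 492 on day 0 and 168, 208 and 261 on day 1 for Zfp423. Smoc2, a secreted matrix protein, had 3232, 3940.2 and 4129 on day 0 and 1889.9, 1446 and 1309.7 on day 1. They fell, with changes of -1.12 ± 0.16, -1.02 ± 0.20 and -1.29 ± 0.15 (adjusted p from 0.000143 to 0.00406). The surface receptor Pdgfra, by which these cells are often sorted, had 5082, 4714 and 5647 on day 0 and 6225, 4024 and 5149 on day 1, with overlapping groups and a change of -0.02 ± 0.14 (adjusted p = 0.917, and 0.10 with median centring). Of 20 tested genes of fat cells and lipid storage 9 fell, 4 without day 0 replicate 3 and 5 without day 1 replicate 1. The glycerol channel Aqp7 fell by 1.39 ± 0.24, from 1446, 1269.7 and 1299 to 488, 698 and 391. G0s2, an inhibitor of fat lipase that is also found in neutrophils, rose by 3.65 ± 0.33, from 282, 521 and 323 to 7464, 4088 and 3076. Among binding proteins of the insulin-like growth factors, Igfbp5 had 13877, 12990.5 and 15861 on day 0 and 4656, 3545 and 5464 on day 1 and Igfbp6 had 9111, 13318 and 12185 on day 0 and 5892, 7248 and 5308 on day 1, with changes of -1.66 ± 0.15 and -0.90 ± 0.16. Igfbp3, the main carrier in plasma, had 2205, 2981 and 3031 on day 0 and 3999.9, 4329 and 4548 on day 1 and rose by 0.66 ± 0.16 (adjusted p from 1.78e-05 to 0.0113).

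**Figure D4:**
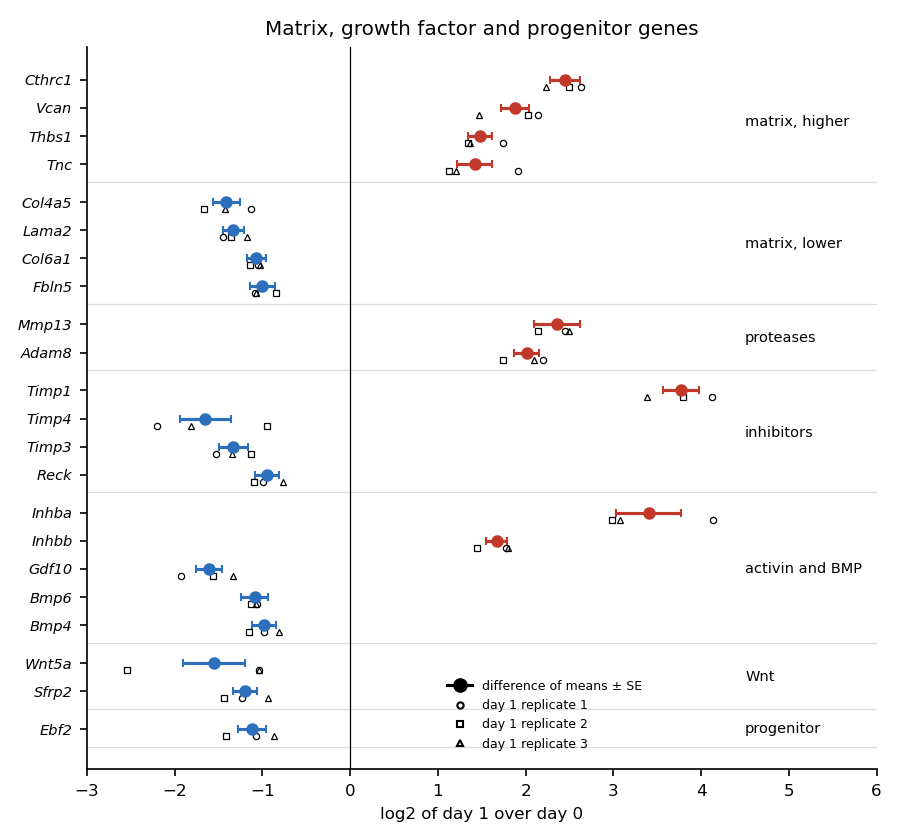
Change from day 0 to day 1 (x axis, log2 of day 1 over day 0) of 22 genes of matrix, proteases and inhibitors, activin, BMP and Wnt ligands and adipose progenitors (y axis). Filled points are the difference of means with its standard error from limma, and small open points are the 3 mice of day 1 relative to the day 0 mean. Timp1 and the activin chains lie to the right, and the other inhibitors, BMP ligands and basement membrane genes to the left.

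Genes of glycolysis were higher in part. Of 20 tested genes of glycolysis and lactate transport 10 rose and 1 fell (none without day 0 replicate 1 or 3 or day 1 replicate 1, and 2 without day 1 replicate 3), with a median of 0.60. Pkm, pyruvate kinase, had 1607, 2082 and 1812 on day 0 and 7209, 6492 and 5265 on day 1, and Tpi1, triosephosphate isomerase, had 2525, 3016 and 2412 on day 0 and 9709, 6307 and 7212 on day 1. Pgk1, which makes the first ATP of the pathway, had 4224, 4473 and 4569 on day 0 and 12698, 8373 and 11036 on day 1. They rose by 1.78 ± 0.15, 1.53 ± 0.16 and 1.25 ± 0.14. Hk3, the hexokinase of myeloid cells, rose by 2.15 ± 0.21, and the lactate exporter Slc16a3 by 1.48 ± 0.28 (adjusted p from 9.77e-06 to 0.00338). Of 19 tested enzymes of the TCA cycle none rose by limma (3 at an unadjusted p under 0.05) and 1 fell, with a median of 0.08, and of 28 respiratory chain genes 3 rose and none fell, with a median of 0.16. These counts depended on the setting. The TCA cycle median was -0.06 with quantile normalization, and the list had 4 risen genes with median centring and 4 without day 1 replicate 3. The respiratory chain had 8 with median centring, 9 without day 1 replicate 3 and 5 without day 0 replicate 2. Cycs, cytochrome c, was the risen respiratory gene with the largest change, 0.75 ± 0.15, from 7507, 9949 and 8611 to 15934, 17122 and 11127. Other targets of hypoxia moved in part, with 7 of 16 targets higher and none lower. Bnip3, which clears mitochondria under low oxygen, had 1021, 1273 and 1348 on day 0 and 4684, 2398 and 3997 on day 1, a change of 1.56 ± 0.24. Among 9 tested regulators of the hypoxia response, listed apart from these targets, 2 rose and 1 fell. The oxygen-sensing prolyl hydroxylase Egln3, a regulator, had 119, 129 and 114 on day 0 and 359.5, 260.2 and 298 on day 1, a change of 1.33 ± 0.19. Replicate 2 of day 1 was lowest in Bnip3 and Egln3, as it was for Vegfa and Apln. Epas1, the hypoxia factor of endothelium, fell by 0.92 ± 0.13, from 11738, 12081 and 15772 to 6369, 7678 and 6708 (adjusted p from 0.000473 to 0.000844). Hif1a, the other regulator that rose, changed by 0.85. Of the pentose phosphate enzymes, Pgd rose by 1.06 ± 0.12 and Taldo1 by 0.65 ± 0.12. The cystine importer Slc7a11, which feeds glutathione, had 83.3, 30.6 and 55.7 on day 0 and 1397, 601 and 690.5 on day 1, and the mitochondrial superoxide dismutase Sod2 had 2589.6, 2943 and 2687 on day 0 and 11575, 7934 and 7636 on day 1. Slc7a11 rose from a mean of 56.5 ± 26.3 to 896 ± 436 (SD, n = 3 each; limma's adjusted p = 1.96e-05). Sod2 rose by 1.70 ± 0.17, whereas Txnip, a thioredoxin inhibitor that follows glucose, fell by 1.01 ± 0.12 (adjusted p from 1.96e-05 to 0.0002).

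Protein handling moved in small, broad steps. Of 23 tested proteasome subunits 21 rose and none fell, with a median of 0.55 (0.46 with quantile normalization and 0.67 with median centring), and none reached 2-fold. Psma5 had 3068, 3361 and 3530.5 on day 0 and 6979.9, 6499 and 4944 on day 1 and Psmb3 had 2021, 2449 and 2016 on day 0 and 3911, 4347 and 2833 on day 1, rising by 0.87 ± 0.14 and 0.76 ± 0.15. Replicate 3 of day 1 lay closest to day 0 in both. The count fell to 13 without day 0 replicate 1, 11 without day 0 replicate 3, 11 without day 1 replicate 1 and 13 without day 1 replicate 2. Of 22 tested chaperones and sensors of the endoplasmic reticulum 11 rose and none fell, with a median of 0.33. The chaperone cofactor Sdf2l1 had 1128, 1562 and 1188 on day 0 and 3349.6, 3327 and 2449.9 on day 1 and the disulfide isomerase Pdia6 had 4319.9, 5019 and 4227 on day 0 and 8824, 9396 and 6832 on day 1, rising by 1.24 ± 0.17 and 0.88 ± 0.13 (adjusted p from 0.000411 to 0.00463). Of 21 tested lysosomal genes 11 rose and none fell, with a median of 0.39. The protease legumain, Lgmn, had 4280.4, 4718 and 5057 on day 0 and 16351, 11938 and 12908 on day 1, and cathepsin D, Ctsd, had 5905, 6614 and 6617 on day 0 and 13534, 12857 and 10654 on day 1. Cd68, the lysosomal membrane protein of macrophages, had 2803, 3346 and 3739.7 on day 0 and 7361, 5869 and 7009 on day 1. They rose by 1.54 ± 0.12, 0.95 ± 0.11 and 1.04 ± 0.14 (adjusted p from 5.6e-06 to 0.000344). No cytosolic ribosomal protein of 20 tested passed limma's test in either direction (1 rose and 1 fell at an unadjusted p under 0.05), with a median of -0.06 (0.06 with median centring) and changes from -0.59 to 0.36. The MYC and ribosome biogenesis list of 20 had 1 rise and 1 fall, with a median of 0.06. The rise was that of Mxd1, a MYC antagonist, with 716, 835 and 819 on day 0 and 7914, 5075 and 5583 on day 1 and a change of 2.95 ± 0.16. The fall was that of Myc, at -0.62 ± 0.16 from 6219.5, 5256 and 6434 to 3203, 3462 and 5183, and its call was lost without day 0 replicate 1 or 3 or day 1 replicate 1 or 2 (adjusted p from 0.052 to 0.0654). The plot of changes by list sets these groups beside each other.

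**Figure D5:**
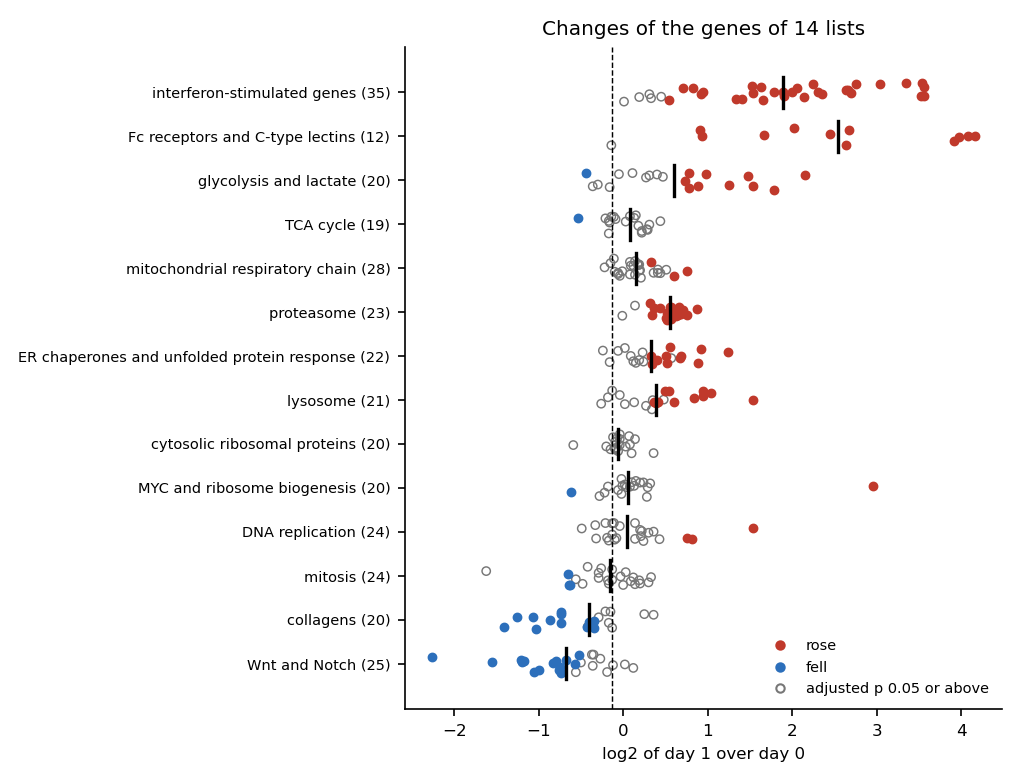
Change from day 0 to day 1 (x axis, log2 of day 1 over day 0) of every tested gene of 14 lists (y axis), with 1 point per gene, filled where limma's adjusted p was under 0.05, and a bar at the list's median. The dashed line is the median over all genes, -0.13. Interferon-stimulated genes lie around 1.89, proteasome subunits close together around 0.55, ribosomal proteins around -0.06 and Wnt and Notch genes around -0.68.

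Genes of blood clotting factors, known as products of the liver, were among the rises. F10, coagulation factor X, was called present on no array of day 0 (12.7, 89.1 and 85.2) and on all of day 1 (2011, 1160.4 and 902), at least 27.9-fold higher. F7, factor VII, went from 67.6, 49.7 and 41.5 to 413, 248 and 280.0, at least 5.9-fold. Plaur, the receptor that holds urokinase on the cell, had 2032, 2093 and 2175 on day 0 and 5046, 3464 and 3987 on day 1, a change of 0.97 ± 0.13. Serpina3n, a protease inhibitor of the acute phase, rose by 2.30 ± 0.18 (adjusted p from 5.6e-06 to 0.000422). In the list of plasminogen activation and coagulation, 7 of 18 rose and 1 fell. Enzymes of lipid mediators rose in part, with 7 of 19 higher and 3 lower (1 without day 0 replicate 1 or 3 or day 1 replicate 2). These were 36.8% and 15.8%, against 10.7% and 17.9% of all genes. Pla2g7, which breaks down platelet-activating factor, had 1336, 1239 and 1220.0 on day 0 and 5921, 4029 and 4543 on day 1, and Alox5ap, needed for leukotrienes, had 2997, 2655 and 3194 on day 0 and 8997, 7342 and 8468 on day 1. Ptgis, which makes prostacyclin, had 635, 871 and 851 on day 0 and 2497, 1917 and 1598 on day 1. They rose by 1.92 ± 0.14, 1.49 ± 0.12 and 1.34 ± 0.20, and the inducible cyclooxygenase Ptgs2 by 0.89 ± 0.17 (adjusted p from 4.1e-06 to 0.00297). In the list of the BCL2 family and cell death, 4 of 16 rose and 2 fell (25% and 12.5%, against 10.7% and 17.9% of all genes). Mlkl, the executor of necroptosis, a lytic cell death, had 226, 309.6 and 271 on day 0 and 1393, 956 and 1312 on day 1, and the kinase Ripk3 had 973, 1089 and 1034 on day 0 and 2000.5, 1813 and 1657 on day 1, changes of 2.18 ± 0.21 and 0.82 ± 0.11 (adjusted p from 3.72e-05 to 0.000462). Iron handling had 5 of 14 genes higher, among them the zinc and iron importer Slc39a14, with 718, 506 and 730.3 on day 0 and 2363, 2071 and 2029 on day 1 and a change of 1.74 ± 0.22.

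Immediate early genes, which cells switch on within minutes of stress and which digestion of tissue is known to induce, were called present on both days where named here. Of 20 tested 1 rose and 8 fell, 5 without day 0 replicate 3, with a median of -0.28. Jun, a subunit of AP-1, had 19109, 20888 and 23074 on day 0 and 13707, 10636 and 15630.5 on day 1, and Fosb had 6249, 4976 and 6679.9 on day 0 and 3350.1, 2743 and 4654 on day 1. They fell, with changes of -0.67 ± 0.14 and -0.76 ± 0.18, whereas Ier3, a survival gene of the same class, rose by 0.61 ± 0.11, from 13301, 15664 and 16398 to 25181, 21926 and 22001 (adjusted p from 0.00189 to 0.00928). Of 14 tested targets of glucocorticoids 5 fell (3 without replicate 1 of day 0 or replicate 1 or 2 of day 1, and 2 without day 0 replicate 3) and 1 rose. The riser was Lcn2, the neutrophil granule gene given above. Zbtb16 and Klf9, transcription factors that these hormones induce, had 790.2, 408 and 700.2 on day 0 and 124, 250.4 and 265 on day 1 for Zbtb16 and 10359, 8081 and 9974 on day 0 and 5080.3, 5181 and 5103 on day 1 for Klf9, with changes of -1.59 ± 0.31 and -0.88 ± 0.13 (adjusted p from 0.000782 to 0.00414). Of the lists of cell division, those of DNA replication and mitosis stood near or below the shares of all genes, 10.7% higher and 17.9% lower. In the list of G1 cyclins, kinases and inhibitors 2 of 20 genes (10%) rose and 7 (35%) fell, with a median of -0.13. Its fallen genes numbered 4 to 8 when single arrays were left out. In the DNA replication list 3 of 24 genes (12.5%) rose and none fell (5 rose without day 1 replicate 3 and 6 with median centring), with a median of 0.05. Gins2, a part of the replicative helicase, had 135, 119 and 92 on day 0 and 405, 405 and 215 on day 1 and rose by 1.53 ± 0.25. In the mitosis list none of 24 rose and 3 (12.5%) fell (5 without day 0 replicate 2 or day 1 replicate 3, and 1 among genes present on all 6 arrays). Ccnb2, a mitotic cyclin, had 343, 298 and 304 on day 0 and 170.5, 212 and 225 on day 1, and Cdc20, which triggers exit from mitosis, had 735, 608 and 619.6 on day 0 and 374, 454 and 436 on day 1. They fell, with changes of -0.65 ± 0.14 and -0.63 ± 0.13 (adjusted p from 0.00122 to 0.00701).

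The largest falls were much smaller than the largest rises and included genes of nerve, lymphocyte and stroma. Scg3, a granin of secretory vesicles, was called present on all arrays of day 0 (255, 219.9 and 214) and on none of day 1 (98.6, 24.9 and 66), at least 4.2-fold lower. Slc16a9, a carrier of the monocarboxylate family, had 1015, 1063 and 1102 on day 0 and 232, 248 and 416 on day 1, a change of -1.88 ± 0.21. Opcml and Lsamp, neural cell adhesion molecules of the same family, had 458, 698 and 668 on day 0 and 195, 171 and 169.5 on day 1 for Opcml and 120.4, 116 and 112 on day 0 and 37.9, 22.8 and 44.8 on day 1 for Lsamp. They fell, with changes of -1.75 ± 0.19 and -1.77 ± 0.33. In neither did the groups overlap, which the rule for choosing the largest falls required. Genes of myelinating Schwann cells fell too, with 4 of 9 tested lower and none higher. Mbp, myelin basic protein, had 1405, 1987 and 2316 on day 0 and 832, 1006 and 1020.5 on day 1, and S100b, a marker of glia, had 201, 267 and 252 on day 0 and 165, 132 and 106 on day 1, changes of -0.97 ± 0.19 and -0.85 ± 0.21. The Schwann cell factor Sox10 did not pass the detection filter. Nlrc3, a NOD-like receptor found in T cells, had 629, 512 and 606 on day 0 and 113, 175 and 372 on day 1, with replicate 1 of day 1 lowest as for the T cell genes, a change of -1.58 ± 0.35. Mamdc2, an extracellular matrix protein, had 681, 829.6 and 881 on day 0 and 237, 300.4 and 226 on day 1, even across the mice, a change of -1.65 ± 0.16 (adjusted p from 3.52e-05 to 0.0117).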

How the data were processed

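RNA was taken from the SVF of 3 individual mice per day, made into biotinylated cRNA and hybridised to 1-colour mouse 3' expression arrays with 45101 probe sets. The authors summarised the probes with MAS5 (version not given in the sources used here). The deposited values are signal intensities on a linear scale, scaled so that the mean of each array, after trimming 2% at each end, is the same. Present and absent calls follow from the deposited detection p-values. The number of arrays limits the precision. The p-values set the difference between days against the spread between arrays of the same day. With 1 array per mouse, that spread holds the mice and the handling of each sample together.

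Of the probe sets, 34945 had exactly 1 gene symbol (18193 genes), 932 had several, 9160 had none and 64 were controls. Those with 1 symbol and a present call in every mouse of some day were kept, and the brightest stood for its gene, which left 11796 genes. Log2 signals, with no offset, were fitted with day as a factor over all 9 arrays in limma 3.58.1 (R 4.3.3), with a variance trend, and day 1 was compared with day 0. P-values were adjusted by Benjamini-Hochberg and called under 0.05. In simulated data for this comparison, where 200 of 11796 genes were changed, 17.6% of log2 changes of size 0.5, 67.6% of size 1 and 95% of size 2 were called. In the data themselves 3378 genes were called, far more than were changed in the simulation. The adjustment depends on that number, so these shares need not hold for the data. Groups came from the sample titles.

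By rule, the named genes were the top 30 by size of change in each direction, called, with no overlap between days and a present call on all arrays of the brighter day, up to 5 called genes per list and direction, up to 3 others per list, and cell type markers. Not all of these are printed. The members and lists were chosen with earlier results of these data known. Some genes that meet the rule are not reported here. Promoter sequences are RefSeq's on GRCm38.p6, found for 9539 of the 11796 genes. The alternatives changed the scaling, offset, detection filter, choice of probe set, variance model, arrays, replicate block, threshold or test, or left out each array in turn.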

Additional observations from a re-analysis of the deposited data

How the results depend on the processing

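Of 188 named genes, 187 kept their direction under every alternative in which they were tested. The exception was Pdgfra, whose change of -0.02 was 0.10 with median centring and 0.23 when a gene's probe sets were averaged, and ranged from -0.17 to 0.14 when single arrays were left out. Of 178 named genes that were called, 169 stayed called without each array in turn. Of 73 list medians, 16 changed sign under some alternative, and 14 of these were under 0.2 in size. The stefins and cystatins went from 0.85 to -0.39, and the epithelial list from -0.42 to 0.17, among genes present on all 6 arrays.

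Genes lower on day 1 (2110) numbered 1272 with median centring, 1402 in a fit of only the 6 arrays and 707 at an adjusted p under 0.01. Genes at least 2-fold lower (396) numbered 251 with quantile normalization, 217 with median centring, 180 with 64 added to signals and 244 at an adjusted p under 0.01. Genes higher on day 1 (1268) numbered 703 at that threshold. With the methods' ANOVA at their threshold, an unadjusted p under 0.05, 2-fold rises and falls numbered 424 and 328 in the one-way form and 411 and 286 with repeated measurements. After adjustment they numbered 380 and 215, and 230 and 93. Leaving out single arrays gave 806 to 1685 genes higher, 1000 to 2863 lower, 361 to 511 at least 2-fold higher and 236 to 670 at least 2-fold lower. The cause of these shifts was not tested.

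Deviations from the day means correlated at -0.15, 0.33 and 0.10 between arrays of days 0 and 1 with the same replicate number, and not every array correlated best with its own number, so the numbers were not taken as pairs. With the replicate block, 1332 genes were higher and 2177 lower, 436 and 409 of them by at least 2-fold, and Ifng passed the test (adjusted p = 0.0286). For the 77 genes present on all arrays of day 1 and none of day 0, the fold is limited by the background of day 0.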
